A study of Drosophila melanogaster with 4 samples.

Results

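Genes of the Notch signalling pathway were examined for chromatin sites of the Notch receptor itself: the receptor gene N, the ligand genes Dl and Ser, the glycosyltransferase gene fng, the ubiquitin ligase gene neur, and the regulators numb, Su(H) and H. The group holds 8 genes of the 10915 protein-coding genes that could be placed on the X, 2L, 3L and 3R arms. A peak was assigned to a gene when it overlapped the gene span or the 10 kb on either side. By this rule 10 of the 4198 peaks of the series (0.238%) belonged to the 8 genes. The rule names the genes and uses no peak score, but they were chosen with earlier results of these data known.

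The study mapped Notch tagged with green fluorescent protein (GFP) by chromatin immunoprecipitation and sequencing (ChIP-seq) in whole wandering larvae (L3) of Drosophila melanogaster of unknown sex. All 4 libraries came from the strain Notch-GFP, genotype PBac{y[+]-attP-3B}VK00033, whose transgene carries the genomic coding region of Notch. Of these, 2 libraries were precipitated with the rabbit polyclonal antibody GFP ab290 and 2 were input DNA. For all 4, growth was at 25 °C and crosslinking was in 1.8% formaldehyde for 15 min. VK00033 is a docking site on the third chromosome, so each animal also has the transgenic copy of N away from the X. The state of the endogenous N gene is not given in the labels, and the protocol text in the labels speaks of y; bw cn sp flies. Chromatin of all larval tissues was mixed, so a site used strongly in few cells cannot be told apart from one used weakly in many. The labels give neither a precipitation from untagged larvae nor one with a control antibody, and the authors' single peak list has no value per library. The values below therefore carry no replicate error, no test was run, and all comparisons are descriptions. Read depth is not known, so the lack of a peak means that none was listed by the authors and not that Notch was absent.

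Notch is a single-pass receptor at the cell surface that is activated by Dl or Ser on a neighbouring cell. Activation releases its intracellular domain, which enters the nucleus and joins the DNA-binding protein Su(H) and a coactivator to switch on target genes. In the absence of the signal, Su(H) represses the same genes together with Hairless, the product of H. Imaginal discs and the nervous system of the larva use this pathway for boundary formation, growth and the choice between neural and other fates.

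Peaks were found at 5 of the 8 genes: N, Dl, neur, numb and H. Ser, fng and Su(H) had none. Among the other protein-coding genes of the same arms, 55.4% had a peak in the span or within 10 kb, and among the 1521 genes of like length to a member on its arm 64.1% had one. Here like length means within 1.5 times. The 5 of 8 lay near the background: at the rates of their like-length genes, added up over the 8 genes, 5.41 genes would have had a peak. In all, the 8 windows of 323 kb held 10 peaks, or 3.09 per 100 kb (exact 95% Poisson interval 1.48 to 5.69). The 4 arms carried 2.95 per 100 kb (2.84 to 3.06). At the mean of their like-length genes the 8 genes would have had 11.7 peaks. N alone had 5 of the 10 peaks, against a mean of 2.0 for its like-length genes. The intervals reflect counting error alone, as if each peak were an independent event.

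Most of the peaks lay within the genes, and most had low scores. Of the 10 peaks, 7 overlapped the span of a member and 3 lay in a flank. Within the 163 kb of gene spans this was 4.29 peaks per 100 kb (exact 95% Poisson interval 1.72 to 8.83), and 7 peaks compare with 5.40 at the mean of the like-length genes. Of the 7, N held 3, against a mean of 1.12 for its like-length genes. A peak inside the span was present in 4 of the 8 genes (N, Dl, numb and H), against 3.19 at the rates of like-length genes. Over all other protein-coding genes of these arms, whatever their length, the share was 17.5%. The authors' peak score, whose MACS statistic is not given in the sources used here, ranged from 13.2 to 163 over the 10 peaks. Their median was 17.7, against 25.2 for all 2884 peaks of the 4 arms, and 8 of the 10 scored below the median of the whole list (26.1). The exceptions were the peak at H and the highest peak of N. In width the 10 peaks ran from 289 to 990 bp. Their median width was 530 bp, and that of all peaks on the 4 arms was 494 bp.

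**Figure D1:**
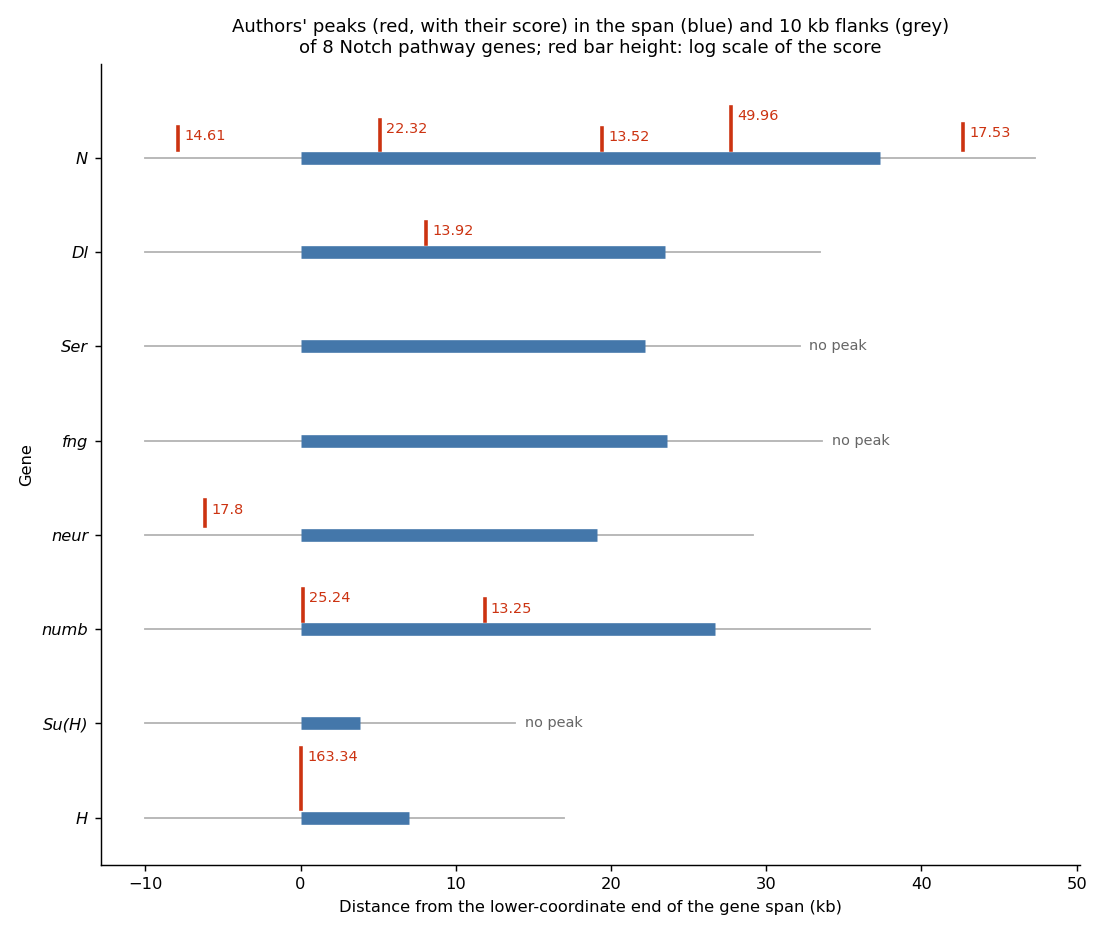
Peaks at the 8 genes, drawn as distance in kb from the lower-coordinate end of each gene span (blue), with 10 kb flanks in grey. Each red line is 1 peak of the authors' list, labelled with its score, with its height on a log scale. N carried 5 peaks and H the highest score, and Ser, fng and Su(H) had no peak in the window.

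N, the receptor gene and the locus copied in the transgene, had the most peaks of the 8 genes. Its window of 57.4 kb on the X held 5 peaks, 0.634% of the 789 peaks of that chromosome. The first inside the gene ran from 3033643 to 3034372 (release 5 of the genome) with a score of 22.3, 4.74 kb from the lower-coordinate end. The second, from 3048146 to 3048522, scored 13.5 and lay at 52.0% of the gene's length. The third, from 3056245 to 3057085, had the highest score of the locus, 50.0, which is rank 1261 in the list and above 70.0% of all peaks. It was centred at 74.3% of the gene's length, so the strongest signal of N lay well inside the gene, 9169 bases from the nearer end. Neither end of the N span had a peak within 500 bases.

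Both flanking peaks of N fell in other genes. The peak from 3020651 to 3021418 (score 14.6) lay in kirre, which encodes an adhesion protein of muscle founder cells, 7485 bases outside N. The peak from 3071440 to 3071734 (score 17.5) lay in dnc, which encodes a cyclic AMP phosphodiesterase, 5186 bases beyond the other end. The genes CG18508, Fcp3C and CG3939 lay between this peak and N. Just outside the window the nearest further peak was 16.6 kb away, also in kirre, with a score of 19.1.

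Set against 86 genes of like length on the X, N stood towards the high end in number but not in score. At least 5 peaks were found in 7 of the 86 genes (8.14%, exact 95% binomial interval 3.34 to 16.1%), and the 86 genes had a mean of 2.0 peaks and a maximum of 13. The binomial intervals, here and for numb, treat the genes as independent draws, although neighbouring genes can share a peak. Counting the span alone, 10 of the 86 (11.6%) had at least the 3 peaks of N. Among peaks that scored above the list's median N had 1, and 50% of the like-length genes had at least 1, so its place in number rested on low-scoring peaks. Of the like-length genes with a peak, 43.1% had a highest score of at least that of N. The gene most like N in this set, by number of peaks and then by highest score, was RhoGAP18B with 5 peaks and a highest score of 48.9. Reads from the transgene and from the endogenous gene fall on the same coordinates, in the ChIP and the input libraries alike. The part that this extra copy has in the peaks of N was not tested, as the list holds no coverage of either.

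**Figure D2:**
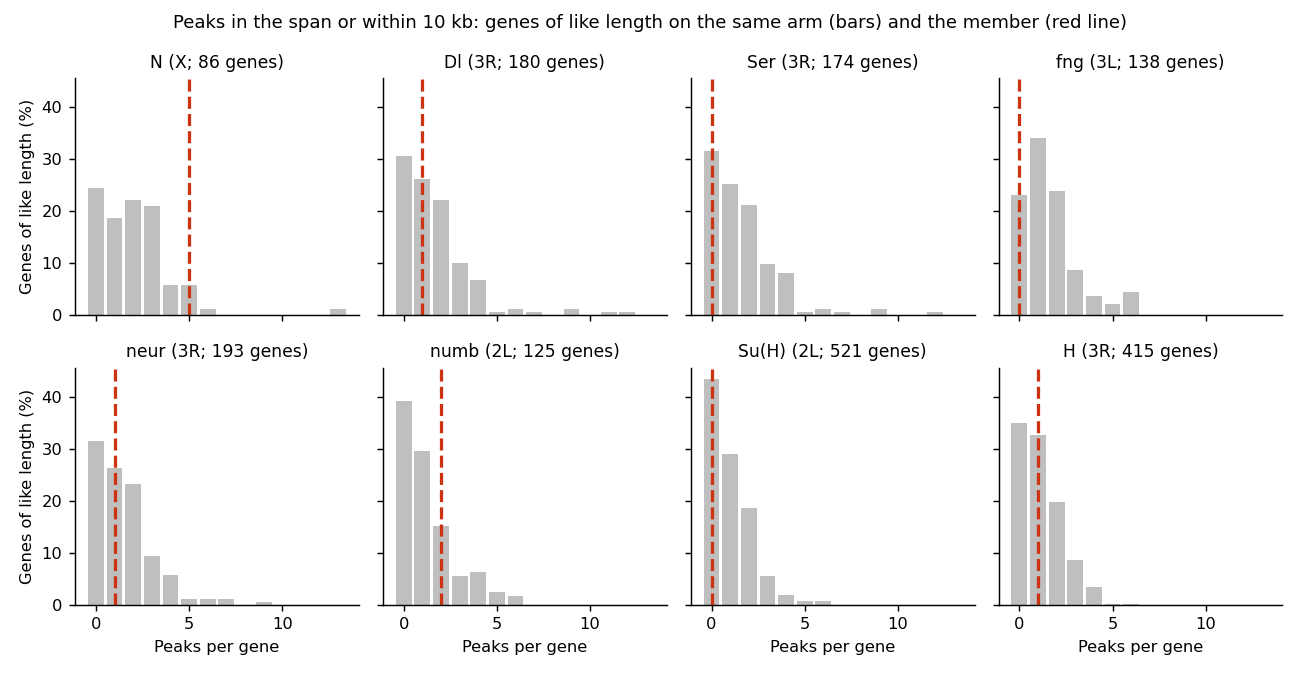
Number of peaks per gene (x axis) against the percentage of genes of like length on the same arm (bars, y axis), with the member marked by the dashed red line. The line for N stands at 5 peaks, a number reached by 8.14% of the 86 comparison genes; the lines of Ser, fng and Su(H) stand at 0.

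Of the ligand genes, Dl had 1 low-scoring peak and Ser had none listed. Dl, which encodes the ligand Delta, is listed under that name in the gene table. It had 1 peak on 3R, from 15136317 to 15136765, at 34.4% of the gene's length. Its score of 13.9 ranked 3210 in the list, so 23.3% of all peaks scored lower. Among 180 genes of like length on 3R, 69.4% had at least 1 peak, and of those 94.4% had a highest score at or above that of Dl. The next peak was 76.1 kb away from the gene in vib, and a region reaching 100 kb to either side of Dl held 4 peaks in all. The most similar gene was CG43732, with 1 peak and the same score.

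Ser, which encodes the ligand Serrate, had no peak in its window of 42.2 kb on 3R. Among 174 genes of like length 31.6% had none either. The nearest peak was 20.6 kb from Ser in CG6051, with a score of 121, and 15.5% of the like-length genes were farther from a peak. Within 50 kb on either side of Ser there was 1 peak, and within 100 kb there were 9.

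The gene fng encodes Fringe, which adds sugars to the extracellular domain of Notch and so changes its response to the ligands. It had no peak in its window on 3L. At the given placement the nearest peak was 32.6 kb away, in sequence with no annotated gene, and scored 23.0. Of 138 genes of like length on 3L, placed in the same way, 23.2% had no peak, and 7.25% were farther from a peak than fng. Because 3L positions carry an uncertainty of several kb, the gene was also placed by the alignment described below. The distance was then 25.8 kb, and fng still had no peak in its window, while 73.2% of the like-length genes had one in place of 76.8%. The gene under the nearest peak and the share of genes farther from a peak were not worked out again. Among the 8 genes fng was the farthest from any peak under either placement.

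The gene neur encodes Neuralized, a ubiquitin ligase that drives endocytosis of Delta in the signal-sending cell. Its window on 3R held 1 peak, from 4839437 to 4840426, with a score of 17.8. This peak lay 5.64 kb outside neur, inside the gene Kcmf1, with Sf3b5, CG11986 and tgo between them. No peak overlapped the neur span itself, whereas 43.0% of the 193 like-length genes had one. With the flanks included, 68.4% of those genes had at least 1 peak, and Root was the most similar with 1 peak of score 17.7. Just outside the window a peak in Kdm2 lay 13.6 kb from neur.

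The gene numb encodes an inhibitor of Notch that is handed to 1 daughter cell in asymmetric divisions. It had 2 peaks on 2L, both overlapping the gene. The stronger, from 9437390 to 9437835, covered the lower-coordinate end of the span and scored 25.2. The other, from 9449181 to 9449469, lay at 44.4% of the gene's length and scored 13.2. Of 125 genes of like length on 2L, 31.2% had at least 2 peaks in the window (exact 95% binomial interval 23.2 to 40.1%), and 13.6% had at least 2 in the span. Of those with a peak, 75.0% had a highest score at or above that of numb. The most similar gene was pdm2, with 2 peaks and a highest score of 17.3.

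Su(H), which encodes the DNA-binding partner of Notch, had no peak in its window of 23.8 kb on 2L. The nearest peak was 13.6 kb away in ck, with a score of 64.0. In its surroundings of 100 kb on either side there were 3 peaks. Of 521 genes of like length 43.4% had no peak, and 36.5% were farther from a peak than Su(H). The absence of a peak at Su(H) was therefore common among short genes of this arm.

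H, which encodes the corepressor Hairless, carried the strongest peak of the group. The peak on 3R from 16447406 to 16448017 covered the lower-coordinate end of the H span, reaching 0.36 kb into the gene. Its score of 163 ranked 239 among 4198 peaks and 35 among the peaks of 3R, so 94.3% of the list scored lower. H was the only gene it overlapped. It was also the only peak in the window, and 65.1% of the 415 like-length genes on 3R had at least 1. Of those with a peak, 12.6% had a highest score of at least 163. The gene most like H by the same measure, CG15923, is its close neighbour and reaches this value through the same peak, so it is no independent match. The nearest peak outside the window was 27.7 kb from H in bon, with a score of 17.6.

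A peak within 500 bases of an end of the gene span was present at 2 of the 8 genes, numb and H. The same share over all other protein-coding genes was 17.5%, and at the rates of like-length genes 2.13 of the 8 would have had one. The gene table gives no strand, so which end is the transcription start could not be told from it.

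By density of peaks the order was N with 8.72 per 100 kb of window (exact 95% Poisson interval 2.83 to 20.3), numb with 4.28 (0.518 to 15.5), H with 3.71 (0.0938 to 20.7), neur with 2.56 (0.0647 to 14.2) and Dl with 2.30 (0.0582 to 12.8). The intervals of all 5 overlapped, and the upper bounds for Ser (8.75), fng (8.46) and Su(H) (15.5) at 0 peaks lay within the interval of N. The order by highest score was different, with H first, N next, then numb, neur and Dl.

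Other genes of the pathway were taken from a list of 36, of which 35 could be placed; aPKC on 2R was not placed. Of the 35, 26 (74.3%) had a peak in the span or within 10 kb, where the rates of genes of like length on the same arms would have given 22.1. A peak inside the span was present in 15, against 10.5 at those rates. The group listed as nuclear partners of Su(H) had peaks at 6 of 6 genes and inside the span at 5, against 4.08 and 2.39 at the rates of like-length genes. It includes gro and CtBP, which encode corepressors recruited by Hairless, and nej, which encodes the histone acetyltransferase CBP. The chromatin remodelling gene osa was also listed in this group and had 12 of its 24 peaks. Target genes outside the E(spl) complex had a peak in the span or within 10 kb at 4 of 5 (wg, ct, sim and pnt), against 3.47 at those rates. All 4 had a span peak, against 2.25 at those rates.

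Of the 5 genes of receptor and ligand processing 3 had a peak (kuz, nct and aph-1), against 2.71 at the rates of like-length genes, and kuz alone had one in its span, against 0.952. Of the 9 genes of endocytosis and ubiquitination 8 had a peak and 2 had one in the span (Su(dx) and Nedd4), or 4 with 3L genes placed by the alignment described below. At the rates of like-length genes 5.93 would have had a peak and 2.82 one in the span. The glycosyltransferase gene rumi had 1 peak of score 29.7 beside it, and 47.4% of its 1257 like-length genes had a peak. Of the 6 placed Numb partners and genes of asymmetric division 4 had a peak (Nak, spdo, l(2)gl and baz), against 4.00 at the rates of like-length genes. The 3 genes of the Bearded family, which encode inhibitors of Neuralized, had none, against 1.40 at the rates of like-length genes. All 3 lie on 3L, with the nearest peak 30.6 kb from Ocho, 33.5 kb from Brd and 36.4 kb from Tom at the given placement. By the alignment described below these distances were 37.4, 40.3 and 43.2 kb. The 3 genes may therefore not be separate absences. Genes with no peak were Tace, Psn, lgd, AP-2alpha, pon, eya, Brd, Tom and Ocho.

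The highest scores among these 35 other genes exceeded the 163 at H, the highest of the 8. A list of 35 genes has more chances of a high score than 8, and the share of like-length genes with such scores was not counted. In sim, which encodes a regulator of the midline cells of the nervous system, the peak from 8889412 to 8890475 on 3R scored 403 and ranked 3 in the whole list. In nej the peak from 9578235 to 9579447 on the X scored 244 (rank 62). In gro the peak from 21867291 to 21869198 on 3R scored 196 (rank 130). The peak from 57899 to 59077 on 3R near aux scored 240 (rank 67), but it lay outside aux and overlapped abs and CG14641.

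**Figure D3:**
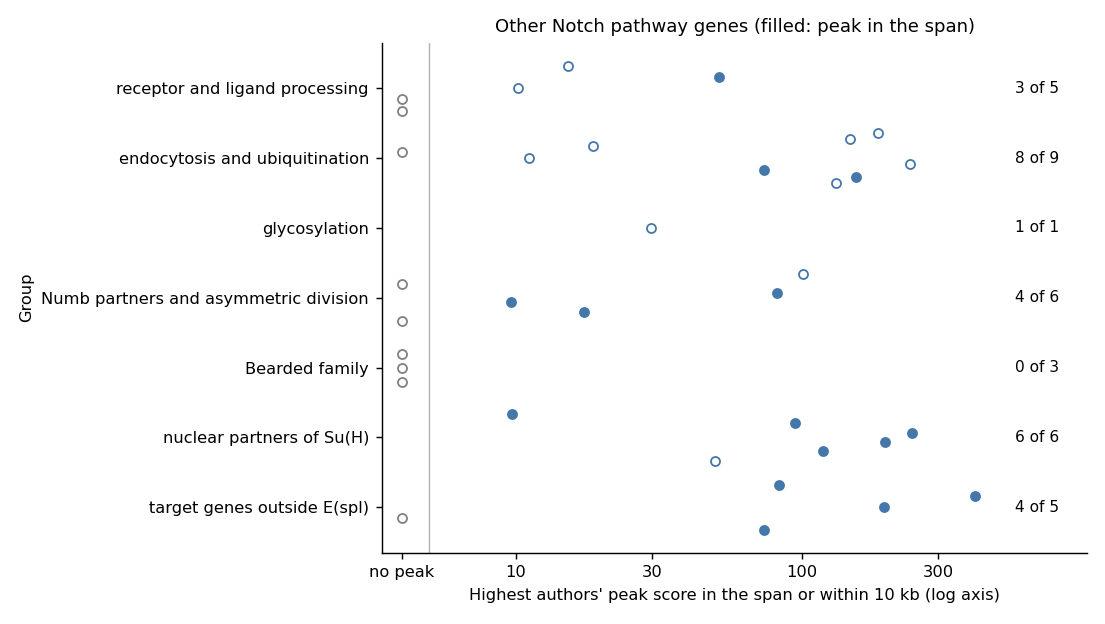
Highest peak score (log axis) for the 35 other pathway genes placed, by group, with filled points for genes with a peak inside the span and open points for genes with peaks only in the flanks; grey points at the left mark genes with no peak. The counts at the right give the genes with a peak in each group, from 0 of 3 in the Bearded family to 6 of 6 among the nuclear partners of Su(H).

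All these assignments rest on moving gene positions of release 6 to release 5 by 1 fixed shift per arm (105967 on the X, 4174278 on 3R, 0 on 2L and 3L). The shifts were checked against the peaks, which gathered at the ends of genes. At the given shift 40.8% of X peaks, 51.8% of 2L peaks and 45.1% of 3R peaks lay within 250 bases of an end of a protein-coding gene. At shifts more than 2 kb away the highest shares were 22.7%, 33.9% and 24.1%, and the shift with the most peaks at gene ends was within 50 bases of the given one on each of these arms. The 2L shares lean on 1 block, from 20 to 22 Mb, which held 131 of the 658 peaks of 2L. At the given shift 104 of these 131 lay at a gene end. On 3L the given shift gave 25.7% and a further shift of 6800 bases gave 39.1%. The shift differed along 3L: in blocks of 2 Mb the best added shift was within 200 bases of 0 up to 6 Mb, and from there on it lay between 6400 and 7050 bases. On the X it was within 150 bases up to 20 Mb, and the 35 peaks beyond gave no clear shift. The given placement is therefore off by several kb over most of 3L, which touches fng and the genes of that arm among the other pathway genes. With 1 alternative shift for each whole arm, which misplaces the first 6 Mb of 3L in turn, the share of other protein-coding genes with a peak was 55.5% in place of 55.4%, and 26 of the 35 other pathway genes had one, as before. The highest score at Nedd4 then was 27.1 in place of 155.

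**Figure D4:**
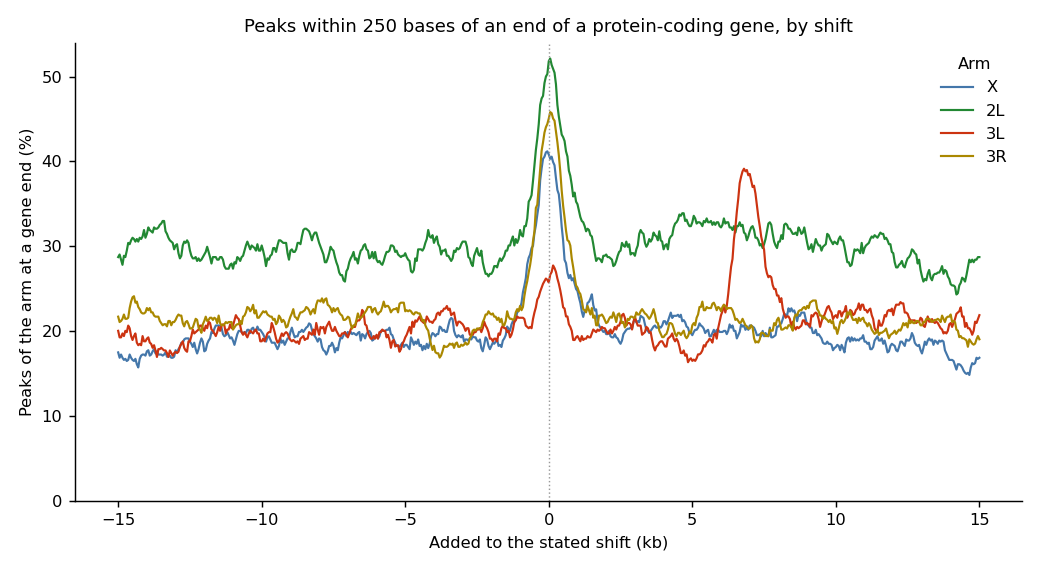
Percentage of the peaks of each arm that lay within 250 bases of an end of a protein-coding gene (y axis), as the shift between the genome releases was moved by up to 15 kb from the given value (x axis). The X, 2L and 3R reached their maximum within 50 bases of the given shift and 3L reached 39.1% at 6800 bases beyond it.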

How the data were processed

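One peak list covers the whole series, on FlyBase release 5 and with MACS as source, per the file headers. The submitters' processing notes name the tools BWA, MACS2 and CASAVA (versions 1.7.0.3 and 1.7.0.2) but no settings. For each peak the authors deposited its bounds and a score. How replicates were pooled, the threshold and the depth are not stated in those sources. Gene spans came from RefSeq on release 6 (found by symbol, or by an older symbol for Dl, nct and lgd) and were moved by 1 shift per arm. Genes that then fell outside the arm, up to its last peak, were left out. The members and gene lists were chosen with earlier results of these data known. Named were all 8 members, their highest, end-nearest and (with 5 or fewer) all peaks, the most similar like-length gene for each member with a peak, and the 4 other pathway genes with the highest scores. No test was run. Promoter and peak sequences were not used here, so the planned search for the Su(H) motif was not run, and ends of the gene span replaced gene starts. Window counts and the shift scan were tested on simulated lists. Python 3.11.15, numpy 2.4.6, pandas 2.3.3, scipy 1.17.1 and matplotlib 3.10.9 were used.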

Additional observations from a re-analysis of the deposited data

How the results depend on the processing

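Of 128 values computed under alternatives, 106 stayed within 1.5 times of the reported count or within its interval and 22 moved. A count or share has no direction, so none could reverse. A gene with 0 peaks in its window must keep 0 with a smaller flank, a stricter overlap or score limit, or merged peaks. Part of the 106 could therefore not have moved. With only the peaks that scored above the list's median, 2 members (N and H) kept a peak, with 2 peaks in all, and 37.8% of other genes had one. With a 20 kb flank the members had 16 peaks, the additional ones lying mostly near neur and Su(H). At the reported flank of 10 kb the members without N had 5 peaks. The 11.7 peaks at the mean of like-length genes were for all 8 genes, and N accounts for 2.0 of them. Without flanks 15 of the other pathway genes had a peak. In each setting of the flank, overlap, merging and shift tried for all members, Ser and fng had 0 peaks, and Su(H) had 0 except with a 20 kb flank or with genes moved 10 kb towards higher coordinates (2 in both). The peak of neur was lost without a flank and with one of 5 kb. Scanning only the 2 Mb around a gene, the shift with the most peaks at gene ends was far from the given one for N (19 of 74 peaks at gene ends against 17 at the given shift) and for Su(H) (11 of 22 against 7), and the cause was not tested. At the shifts it gave, N had 4 peaks and Su(H) had 0. Settings for the whole arm and for the other pathway genes were chosen after seeing the data. No paired analysis was possible because replicates are not separate in the list, which also means that none could be left out.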

Other observations

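The gene osa, which encodes a subunit of the Brahma chromatin remodelling complex, was chosen here after its values were seen. It had 12 peaks in the span or within 10 kb and 9 inside its span of 30.5 kb, more than any other of the 43 pathway genes placed. The highest scored 94.7, below the highest at sim (403), which had 3 peaks. Of 156 genes of like length to osa on 3R, 66.0% had at least 1 peak, but how many had as many as osa was not counted.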
